A study of Homo sapiens with 6 samples.

Results

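RNA levels of the enzymes that make serine and pass its carbon to folate were followed in HCT116 cells, a long-established line from a human colorectal cancer. The 9 genes were taken by symbol: PHGDH, PSAT1 and PSPH of serine synthesis, SHMT2, MTHFD2, MTHFD1L and ALDH1L2 of the mitochondrial folate arm, and SHMT1 and MTHFD1 of the cytosolic arm. All 9 were among the 56638 gene symbols listed, and all 9 passed the filter on low counts, which kept 16369 genes. The set was chosen by function and with its read counts in this same comparison, the strong difference of ALDH1L2 among them, already known. The values below are therefore a description, and no p-value is given for the 9 genes.

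The study compared 3 control libraries with 3 libraries labelled ZFP90 KO, in which guide RNAs had been aimed at exon 3 of ZFP90, a zinc-finger gene of the KRAB family. Both groups were HCT116 cells at passage 16 to 19, grown in RPMI-1640 medium with fetal bovine serum. The labels do not say what the control cells received, or whether replicate libraries stem from different cultures or clones. The p-values given for other genes thus reflect variation between libraries alone, and that may be technical.

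Cells build serine from a glycolytic intermediate in a short chain of reactions and can hand a carbon unit from serine to tetrahydrofolate. The folate cycle runs in parallel in mitochondria and cytosol, with formate as the exchanged unit, and supplies purine and thymidylate synthesis. In proliferating cells the mitochondrial arm usually runs towards formate and the cytosolic arm uses it. Several of these genes are known targets of the stress transcription factor ATF4.

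Each library had between 13424356 and 17012910 reads in genes. Levels are given as CPM, counts scaled to a common library total with edgeR's TMM factors, and 3 reads amount to 0.176 to 0.223 CPM. ZFP90 itself measured 47.5, 47.4 and 43.1 CPM in control replicates 1 to 3 and 86.9, 80.5 and 89.8 CPM in the libraries labelled knockout, so its RNA was higher and not lower under the label. A gene-level count does not show whether exon 3 was disrupted, and directions below hold for the libraries as labelled. Control replicate 2 stood apart from the other 2 controls over long stretches of some chromosomes, so many of the results that it touches are given with and without it. The 15 epithelial markers, EPCAM, CDH1 and KRT8 among them, summed to between 3784 and 3831 CPM in the controls. Their sum over the knockout libraries ran from 3841 to 3910 CPM. The intestinal genes CDX1 and VIL1 had 0 and 8 reads over the 6 libraries. The intestinal factor CDX2 was present, with means of 15.6 (control) and 16.2 CPM (knockout), and was not called. Of 12 tested epithelial markers 0 were called higher and KRT18 was called lower, at 209.7 and 178 CPM. The 10 leukocyte markers summed to between 5.80 and 6.71 CPM in the controls and between 4.33 and 4.65 CPM in the knockout libraries, with CD3E, CD3D and MS4A1 at 0 reads and PTPRC at 1. CD4 made up most of the control sum and was called lower, from 3.83 to 1.55 CPM, while CD8A, at 0.978 and 1.34 CPM, was not called. The 12 fibroblast and endothelial markers summed to 79.6 to 100.3 and 79.8 to 102 CPM, with PECAM1 at 0 reads. COL1A1 made up most of that sum, at 73.9 and 74.3 CPM, and ACTA2 was called lower, from 1.83 to 1.13 CPM. The part of these markers in the results below was not tested.

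Of the 9 enzymes, ALDH1L2 and MTHFD1 were lower in the knockout libraries, PHGDH and PSPH were higher, and the other 5 were not called. A call means that edgeR's quasi-likelihood test over all genes gave a p under 0.05 after Benjamini-Hochberg adjustment. Among all tested genes 21.1% were called, 9.73% higher and 11.4% lower. The 2 lower enzymes sit in different compartments, ALDH1L2 in mitochondria and MTHFD1 in the cytosol. In 6 of the 9 the groups did not overlap in CPM, as in 41.2% of all genes: 4 lay higher, against 20.9% of all genes, and 2 lower, against 20.3%. In bulk RNA, fewer cells with a transcript and less of it per cell cannot be told apart.

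**Figure D1:**
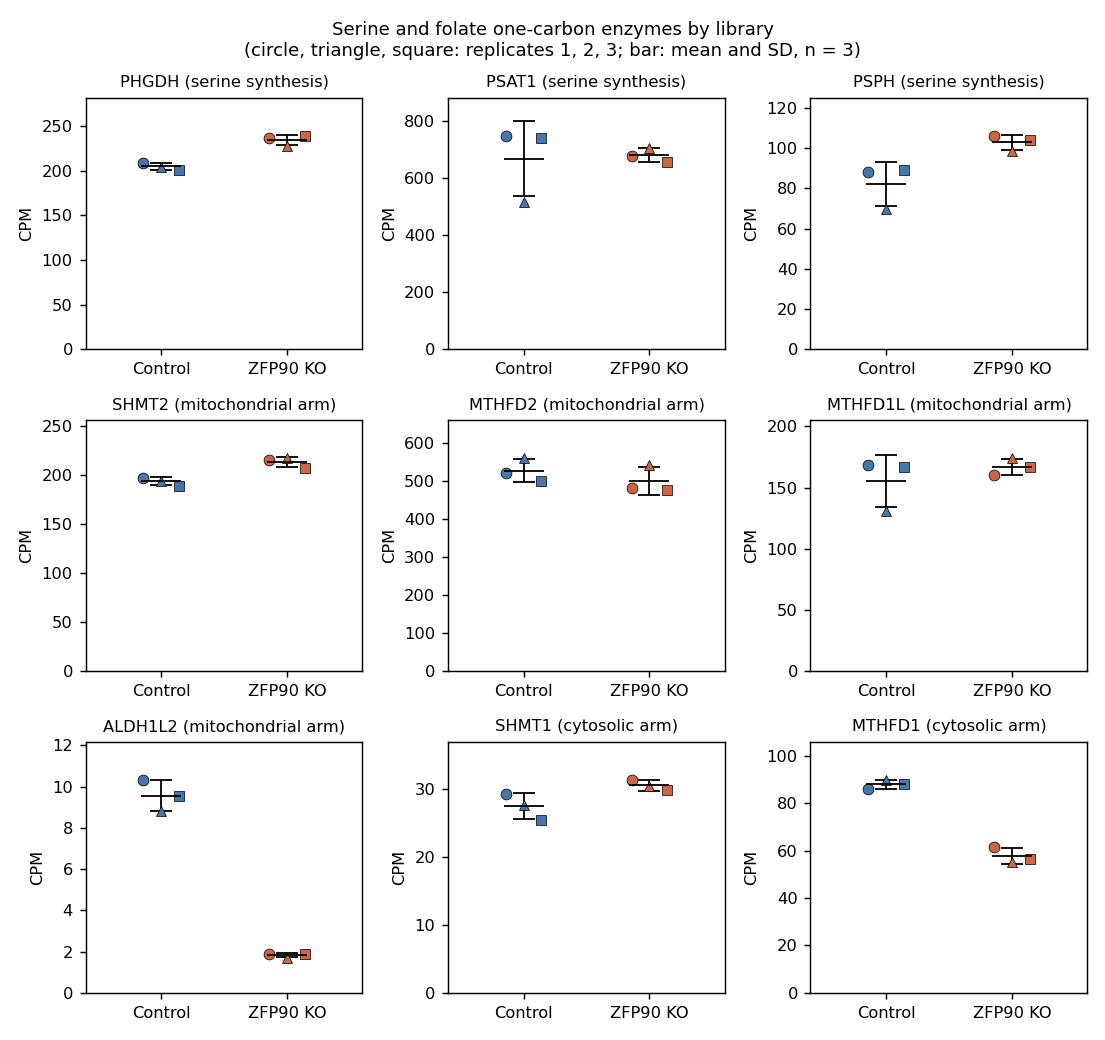
CPM of each enzyme (vertical axis, from 0) in the control and knockout libraries, with circles, triangles and squares for replicates 1, 2 and 3 and bars for the mean and SD (n = 3). ALDH1L2 stands near 2 CPM in all 3 knockout libraries against 8.82 to 10.3 in the controls, MTHFD1 is lower in all 3, and control replicate 2 lies below the other controls for PSAT1, PSPH and MTHFD1L.

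Of the 3 serine synthesis genes, PHGDH and PSPH were called higher, and the direction of PSAT1 depended on control replicate 2. PHGDH, the dehydrogenase that commits carbon to serine, lies on chromosome 1 (119648411 to 119744226, plus strand; GRCh38, GENCODE release 29, as for all gene positions here). It measured 209, 205 and 201 CPM in the controls and 237, 229 and 239 CPM in the knockout libraries. Every knockout library lay above every control, though the log2 fold change was only 0.19 (SE 0.045), a ratio of 1.14. The call was lost without control replicate 3, without knockout replicate 1 or 3, and when libraries were scaled by their size alone.

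PSPH, the phosphatase that releases serine in the last step, lies on chromosome 7 (56011051 to 56051604, minus strand). Its values were 88.0, 69.8 and 89.1 CPM in the controls and 106, 98.8 and 104 CPM in the knockout libraries. The groups did not overlap, and control replicate 2 was the lowest library. The log2 fold change was 0.32 (SE 0.090), and 0.22 (SE 0.055) without control replicate 2. The call was lost when any 1 of the 3 knockout libraries was left out. Its pseudogene PSPHP1 carried 670 reads over the 6 libraries against 8417 for PSPH, and how reads were split between these similar sequences is uncertain.

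PSAT1, the aminotransferase of the middle step, lies on chromosome 9 (78297143 to 78330093, plus strand) and was the most abundant of the 9 per length. It measured 745, 516 and 741 CPM in the controls and 675, 705 and 657 CPM in the knockout libraries. The knockout libraries fell between control replicate 2 and the other controls, which gave a log2 fold change of 0.03 (SE 0.13). Without control replicate 2 the sign turned: the groups no longer overlapped, and the log2 fold change was -0.13 (SE 0.050), still not called. With control replicate 2 corrected along the genome, as described below, it was -0.12 (SE 0.043) and called lower. That call lay only just inside the threshold.

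In the mitochondrial arm, ALDH1L2 had the greatest change of the 9. It encodes the mitochondrial formyl-tetrahydrofolate dehydrogenase, which burns the folate-bound carbon unit to carbon dioxide and yields NADPH. The gene lies on chromosome 12 (105019784 to 105084577, minus strand). It had 167, 134 and 128 reads in the controls and 31, 24 and 29 in the knockout libraries, or 10.3, 8.82 and 9.56 CPM against 1.87, 1.70 and 1.90 CPM. The lowest control lay far above the highest knockout library. The log2 fold change was -2.38 (SE 0.14), which is 5.22-fold lower, and it ranged from -2.45 to -2.33 over 15 alternative fits, all of which called it lower. Exons of C12orf45 on the opposite strand cover 1.70% of its exon bases and had 752 reads over the 6 libraries.

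SHMT2, the mitochondrial serine hydroxymethyltransferase that takes the carbon unit from serine, lies on chromosome 12 (57229327 to 57234935, plus strand). It measured 198, 195 and 189.6 CPM in the controls and 216, 217 and 208 CPM in the knockout libraries. The groups did not overlap, but the log2 fold change of 0.14 (SE 0.045) was not called. It was called higher with limma-voom, without control replicate 2 and with that library corrected.

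MTHFD2, the mitochondrial methylene-tetrahydrofolate dehydrogenase and cyclohydrolase, lies on chromosome 2 (74198562 to 74217565, plus strand). Its libraries overlapped, at 522, 560.4 and 502 CPM in the controls and 482, 544 and 478 CPM in the knockout group. The log2 fold change was -0.08 (SE 0.067), and between -0.14 and -0.03 over the 15 alternatives, none of which called it. Exons of SLC4A5 on the opposite strand cover 27.2% of its annotated exon bases, where reads could be counted as ambiguous or for either gene. SLC4A5 had 262 reads over the 6 libraries and MTHFD2 46629.

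MTHFD1L, the mitochondrial formyl-tetrahydrofolate synthetase that releases formate, lies on chromosome 6 (150865549 to 151101887, plus strand). It measured 169, 131 and 167 CPM in the controls and 161, 174 and 167 CPM in the knockout libraries. Apart from control replicate 2, the 5 libraries lay between 161 and 174 CPM. The log2 fold change was 0.10 (SE 0.092) with all libraries and -0.01 (SE 0.052) without control replicate 2.

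In the cytosolic arm, MTHFD1 was lower. It encodes a cytosolic enzyme that joins the dehydrogenase, cyclohydrolase and formyl-tetrahydrofolate synthetase activities in 1 protein, and lies on chromosome 14 (64388031 to 64463457, plus strand). It had 1393, 1363 and 1182 reads in the controls and 1019, 781 and 862 in the knockout libraries. This was 86.0, 89.7 and 88.2 CPM against 61.6, 55.4 and 56.4 CPM. The control values lay close together, and all knockout values lay well below them. The log2 fold change was -0.61 (SE 0.058), or 1.52-fold lower, and all 15 alternatives called it lower, between -0.67 and -0.58. Exons of ZBTB25 on the opposite strand, with 4509 reads over the 6 libraries, cover 1.90% of its exon bases.

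SHMT1, the cytosolic serine hydroxymethyltransferase, lies on chromosome 17 (18327860 to 18363563, minus strand). It measured 29.4, 27.8 and 25.5 CPM in the controls and 31.4, 30.6 and 29.8 CPM in the knockout libraries. The highest control nearly reached the lowest knockout library. The log2 fold change of 0.15 (SE 0.074) was not called with all libraries or under any of the 15 alternatives.

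Promoter sequence from RefSeq (GRCh38.p14) was found for 6 of the 9 genes, covering 250 bases before and 50 bases after each annotated start; ALDH1L2, PSPH and SHMT2 had no entry. Motifs were searched on both strands, and were chosen after the sequences had been seen. The core of the ATF4 response element, TGATGNAA, occurred in MTHFD1L alone among the 6, and in 3.62% of all 35116 promoters. In MTHFD1L it was 1 site, which lies in 3 overlapping windows of the 4 annotated promoter windows. The percentages here count promoter windows, while the 6 members are counted by gene. The E-box CACGTG, which MYC can bind, occurred in MTHFD1L and MTHFD1 and in 7.26% of all promoters. The antioxidant element TGACNNNGC was found in MTHFD2, just past its start, and in 13.3% of all promoters. A CCAAT box was found in all 6 and in 34.6% of all promoters. The stretches below hold the ATF4 element and E-box matches before the first listed start of MTHFD1L and of MTHFD1. CCAAT matches are not printed. The proteins of both genes share the synthetase activity, while their RNA levels moved differently. Capitals mark the motif, and each stretch reads 5′ to 3′ on the plus strand.
MTHFD1L, ATF4 element, chr6:150866346-150866375: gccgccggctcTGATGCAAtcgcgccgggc
MTHFD1L, E-box, chr6:150866320-150866349: cacgcccggctcCACGTGcgcagccggccg
MTHFD1, E-box, chr14:64388326-64388352: ccagtccctaagCACGTGggttgggtt
The E-box of MTHFD1 began 15 bases before the start and that of MTHFD1L 154 bases before its first listed start, with the ATF4 element 129 bases before it. The E-box letters occur in both genes, and any part of them in the RNA levels was not tested. A match describes the letters only and shows no binding.

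The plot of fold changes with and without control replicate 2 sets the 3 estimates of each enzyme side by side.

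**Figure D2:**
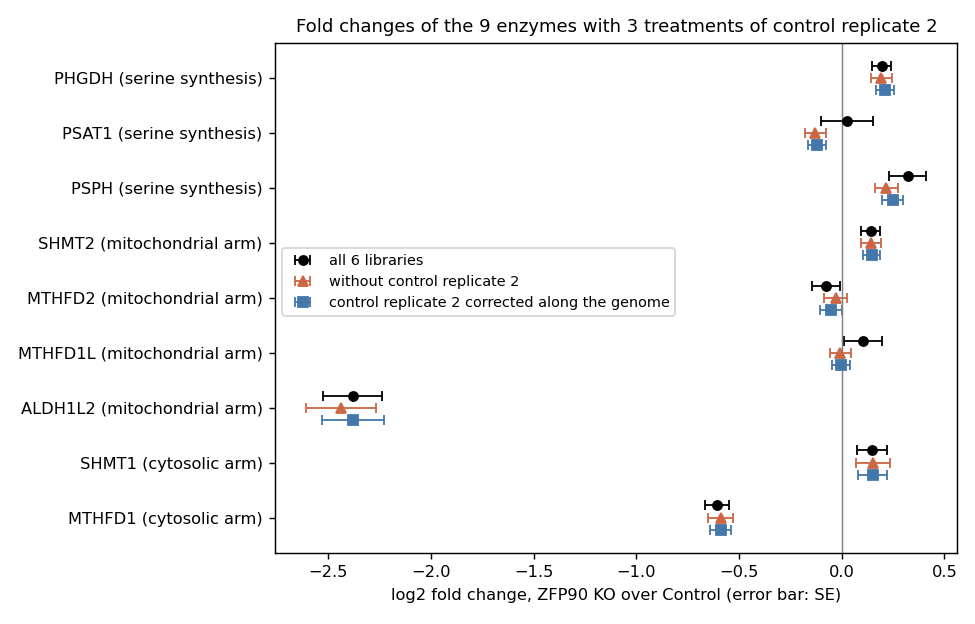
Log2 fold change of each enzyme, knockout over control (horizontal axis; error bars are SE), with all 6 libraries (circles), without control replicate 2 (triangles) and with that library corrected along the genome (squares). ALDH1L2 and MTHFD1 stay at about -2.4 and -0.6 in all 3, while PSAT1 moves from 0.03 to -0.13 and MTHFD1L from 0.10 to -0.01.

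Control replicate 2 stood apart in 3 of the 9 genes, and did so together with their chromosomal neighbours. It reached 69.4% of the other 2 controls at PSAT1, 78.9% at PSPH and 78.1% at MTHFD1L. The running median over 51 neighbouring genes was 70.8%, 84.3% and 78.6% of the other controls around the same 3 genes. Around the other 6 genes that median lay between 100.2% and 105%. ALDH1L2 in control replicate 2 stood at 89.0% of the other controls, where its neighbours stood at 100.2%. The correction scaled the expected level of control replicate 2 by this running median in the fit and left its counts unchanged. The median came from the same controls and was taken as known. The SE and the calls of the corrected fit thus leave out its error. The spread over the controls followed the same split, with a coefficient of variation of 19.7% for PSAT1, 13.2% for PSPH and 13.6% for MTHFD1L and between 1.97% and 7.79% for the other 6. In the knockout libraries the 9 genes had coefficients of variation between 2.34% and 7.41%.

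**Figure D3:**
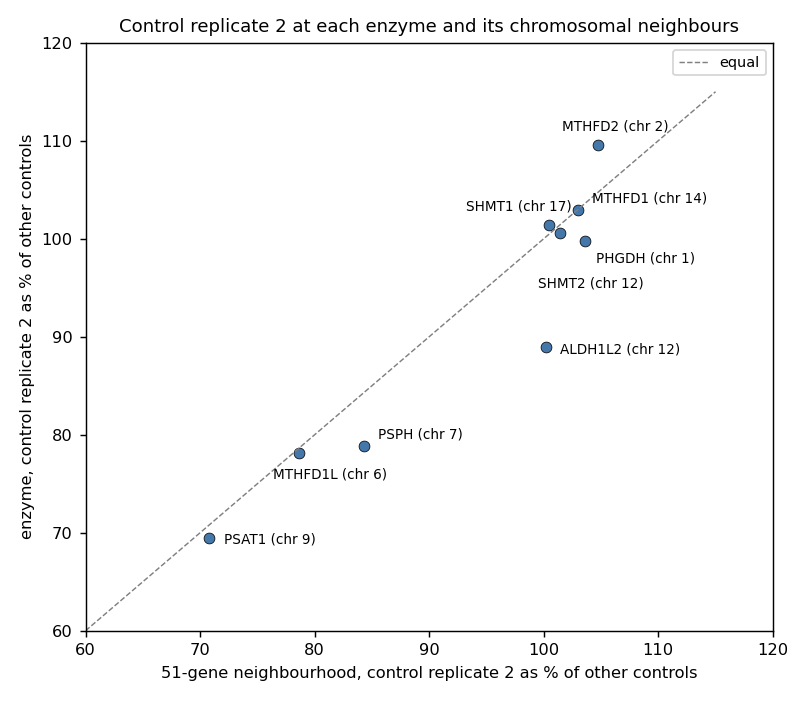
Level of each enzyme in control replicate 2 as a percent of the other 2 controls (vertical axis) against the same percent for the running median of 51 neighbouring genes (horizontal axis), with the dashed line marking equality. PSAT1, MTHFD1L and PSPH lie at the lower left, at 69.4%, 78.1% and 78.9%, near or just below the line.

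The balance of the arms depended on how the enzymes were weighted. With equal weight, the mean log2 CPM of the 4 mitochondrial genes exceeded that of the 2 cytosolic genes by 1.20, 1.09 and 1.23 in the controls and by 0.79, 0.93 and 0.89 in the knockout libraries, lower by 0.31 on average. Without ALDH1L2, an alternative added after the data were seen, the difference was 2.35 ± 0.063 in the controls and 2.63 ± 0.097 in the knockout libraries (SD, n = 3), higher by 0.29. With reads summed per exon length, in which the scarce ALDH1L2 weighs little, the mitochondrial arm was 13.8, 13.6 and 13.7 times the cytosolic arm in the controls and 16.2, 18.9 and 17.3 times in the knockout libraries. The size of this last ratio depends on the length used. All annotated exons of MTHFD1 total 9377 bases, and its principal transcript has 3136. The ratio was not computed with principal transcripts. The direction of the arm difference thus turned with the weighting. Without control replicate 2 the equal-weight change was -0.35, and 0.25 with ALDH1L2 also left out. No score over the genes was tested.

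Pairs of enzymes that catalyse the same step in the 2 compartments did not all move alike. The read ratio of SHMT2 to SHMT1 was 6.72, 7.01 and 7.42 in the controls and 6.89, 7.11 and 6.97 in the knockout libraries, so the groups overlapped. That of MTHFD2 to MTHFD1 was 6.07, 6.25 and 5.69 in the controls and 7.82, 9.82 and 8.47 in the knockout libraries. The ratio of MTHFD1L to MTHFD1 was 1.96, 1.46 and 1.89 against 2.61, 3.14 and 2.96. Both ratios were higher in every knockout library than in every control. Of MTHFD2, MTHFD1L and MTHFD1, only MTHFD1 was called. MTHFD1L was low in control replicate 2. The log2 ratio of MTHFD1L to MTHFD1 rose by 0.72 with all libraries and by 0.59 without control replicate 2. The read ratio of ALDH1L2, which consumes formyl-tetrahydrofolate in mitochondria, to MTHFD1, which makes it in the cytosol, went from 0.109 ± 0.011 to 0.0316 ± 0.0018 (SD, n = 3). ALDH1L2 thus fell further than MTHFD1.

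**Figure D4:**
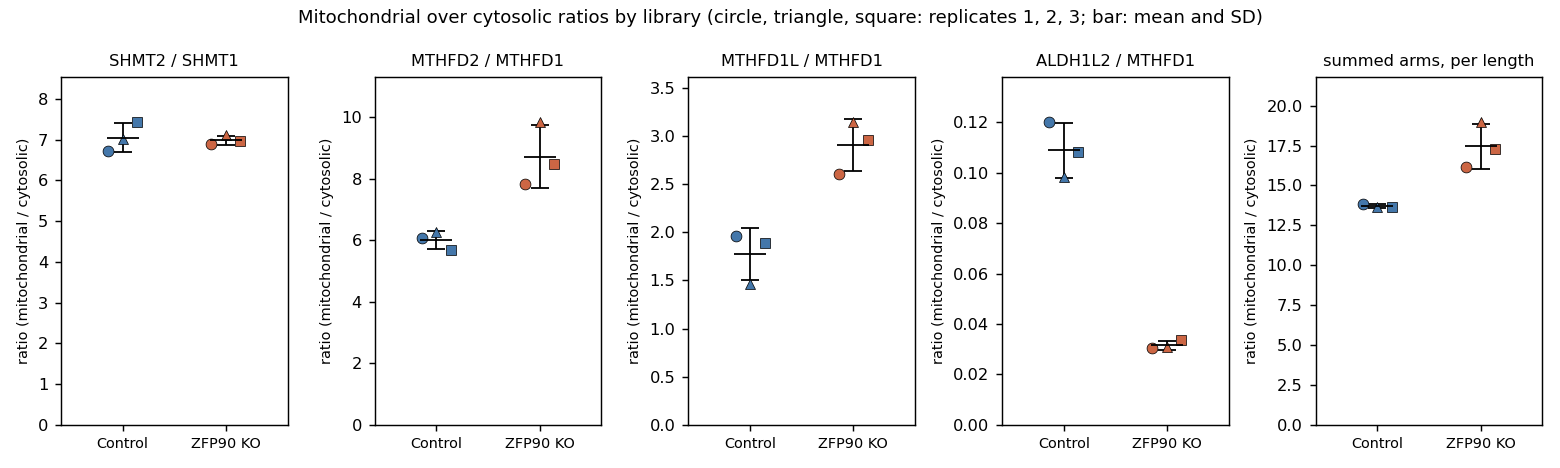
Ratio of a mitochondrial to a cytosolic enzyme in each library (vertical axes, from 0; read counts in the first 4 panels, reads summed per exon length in the last), with bars for the mean and SD (n = 3). SHMT2 over SHMT1 is near 7 in both groups, MTHFD2 and MTHFD1L over MTHFD1 are higher in the knockout libraries, and ALDH1L2 over MTHFD1 is lower.

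Per length, the 9 genes covered a wide range. With all annotated exons of a gene as its length, the controls averaged 305 CPM per kilobase for PSAT1, 108 for MTHFD2, 40.1 for SHMT2, 31.0 for MTHFD1L, 29.8 for PSPH, 22.3 for PHGDH, 9.38 for MTHFD1, 3.79 for SHMT1 and 1.12 for ALDH1L2. Each gene's 3 control values lay above those of the next, except that MTHFD1L and PSPH overlapped. In the knockout libraries PSPH came before MTHFD1L, at 37.3 and 33.3 CPM per kilobase, and no neighbours overlapped. With the length of the principal transcript, chosen as an alternative after the data were seen, PHGDH moved from the sixth place to the third in both groups, at 79.4 CPM per kilobase in the controls. The 3 lowest places stayed with MTHFD1, SHMT1 and ALDH1L2. In both groups each mitochondrial member except ALDH1L2 was thus more abundant than both cytosolic members.

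Other genes of the pathway were taken from 7 lists chosen with earlier results of these data known. Over the 7 lists, 84 genes were tested, 14 were called higher and 9 lower. Without control replicate 2 these counts were 18 and 13, and without knockout replicate 3 they were 8 and 5. Without knockout replicate 1 they were 9 and 4, and without control replicate 1, 9 genes were higher. Among all tested genes 9.73% were called higher and 11.4% lower, the shares to set beside each list below. Their numbers, 1593 and 1861, became 2261 and 2361 without control replicate 2, and 793 and 1125 without knockout replicate 3. The median log2 fold change of all tested genes was 0.008.

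Among 12 other mitochondrial folate and glycine genes, 2 rose and 2 fell, with a median log2 fold change of -0.03. DMGDH, the dimethylglycine dehydrogenase that also feeds carbon to mitochondrial folate, measured 13.99 ± 1.64 CPM in controls and 24.2 ± 2.09 CPM in knockout libraries (SD, n = 3). It rose by a log2 fold change of 0.78 (SE 0.11; edgeR adjusted p = 0.00158). SFXN3, of the sideroflexin family of mitochondrial serine carriers, fell from 91.3 ± 3.81 to 64.4 ± 2.35 CPM, and SFXN2 of the same family fell by 0.40 on the log2 scale. MTFMT, which formylates the mitochondrial initiator tRNA, rose by a log2 fold change of 0.28, and this call was lost in 7 of 15 alternatives. The call of SFXN2 was lost without knockout replicate 1. SFXN1 of the same family, at 112.5 CPM in controls and 104.2 CPM in knockout libraries, overlapped between the groups and was not called. MTHFD2L, the second mitochondrial dehydrogenase, measured 17.0 ± 1.14 and 17.0 ± 0.785 CPM.

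Of 10 tested cytosolic folate genes 1 rose and 0 fell, with a median of 0.11. GGH, which trims folate polyglutamates, went from 12.8 ± 1.48 to 16.1 ± 0.415 CPM (SD, n = 3). It lies on chromosome 8, and its call was lost in 10 of 15 alternatives, among them without control replicate 2 (edgeR adjusted p = 0.074, and from 0.0301 to 0.148 over the alternatives). ALDH1L1, the cytosolic counterpart of ALDH1L2, had only 26 reads over the 6 libraries and was not tested. Thus neither formyl-tetrahydrofolate dehydrogenase exceeded 2 CPM in the knockout libraries.

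Purine synthesis, which consumes formyl-tetrahydrofolate, had 1 of 12 genes higher and 2 lower, with a median of -0.01. PFAS rose by a log2 fold change of 0.24, PPAT, the amidotransferase of the committed step, fell by 0.20, and ADSS fell by 0.16. Each of these calls was lost in some alternatives, 5 for PFAS, 2 for PPAT and 11 for ADSS, out of 15.

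The methionine cycle and transsulfuration list had 5 of 11 tested genes higher and 2 lower, with a median of 0.24. CTH, which makes cysteine from cystathionine, measured 34.7 ± 3.89 CPM in controls and 48.4 ± 2.31 CPM in knockout libraries (SD, n = 3). It rose by a log2 fold change of 0.48 (SE 0.086; edgeR adjusted p = 0.00538). MAT2A, the S-adenosylmethionine synthetase of most tissues, fell from 1096 ± 46.8 to 874 ± 11.5 CPM, while the liver form MAT1A rose from 3.24 ± 0.428 to 5.77 ± 1.07 CPM. MTAP, the methionine salvage phosphorylase on chromosome 9, rose by 0.61, and by 0.42 without control replicate 2. The MTAP call was lost when any 1 knockout library was left out, and that of MAT1A without control replicate 1. CBS, the enzyme before CTH, had 6 reads over the 6 libraries.

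Of 14 tested serine transport and serine-using genes, 2 rose and 1 fell, with a median of 0.02. SERINC5 rose from 35.0 ± 8.47 to 63.1 ± 6.28 CPM (SD, n = 3), SERINC3 of the same family fell by 0.30 on the log2 scale, and the phosphatidylserine synthase PTDSS1 rose by a log2 fold change of 0.53. PTDSS1 lies on chromosome 8, and its fold change was 0.37 without control replicate 2; the call was lost when any 1 knockout library was left out.

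ATF4 RNA overlapped between the groups, at 654, 706 and 641 CPM in the controls and 661, 665 and 629 CPM in the knockout libraries. Its log2 fold change of -0.03 (SE 0.055; edgeR adjusted p = 0.71) was not called. Of 19 tested genes of the ATF4 branch, which comprises its kinases and targets, 2 rose and 2 fell, with a median of -0.01. EIF2AK1 rose by a log2 fold change of 0.41, and by 0.32 without control replicate 2. The stress factor ATF3 rose by 0.30. The cystine transporter SLC7A11 fell by 0.26 and the amino acid sensing kinase EIF2AK4 by 0.17, the last of which was lost in 7 of 15 alternatives. With control replicate 2 left out, 3 rose and 4 fell.

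Of 6 tested other regulators of serine synthesis, 1 rose. It was NFE2L2, the antioxidant transcription factor, with a log2 fold change of 0.17 (SE 0.043; edgeR adjusted p = 0.0234), lost in 5 of 15 alternatives. MYC on chromosome 8 measured 328 ± 76.1 and 405 ± 33.3 CPM (SD, n = 3) and was not called, with a log2 fold change of 0.30 that was 0.13 without control replicate 2. It was called higher in 3 of 15 alternatives: with no filter on low counts, with the replicate block and with control replicate 2 corrected.

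**Figure D5:**
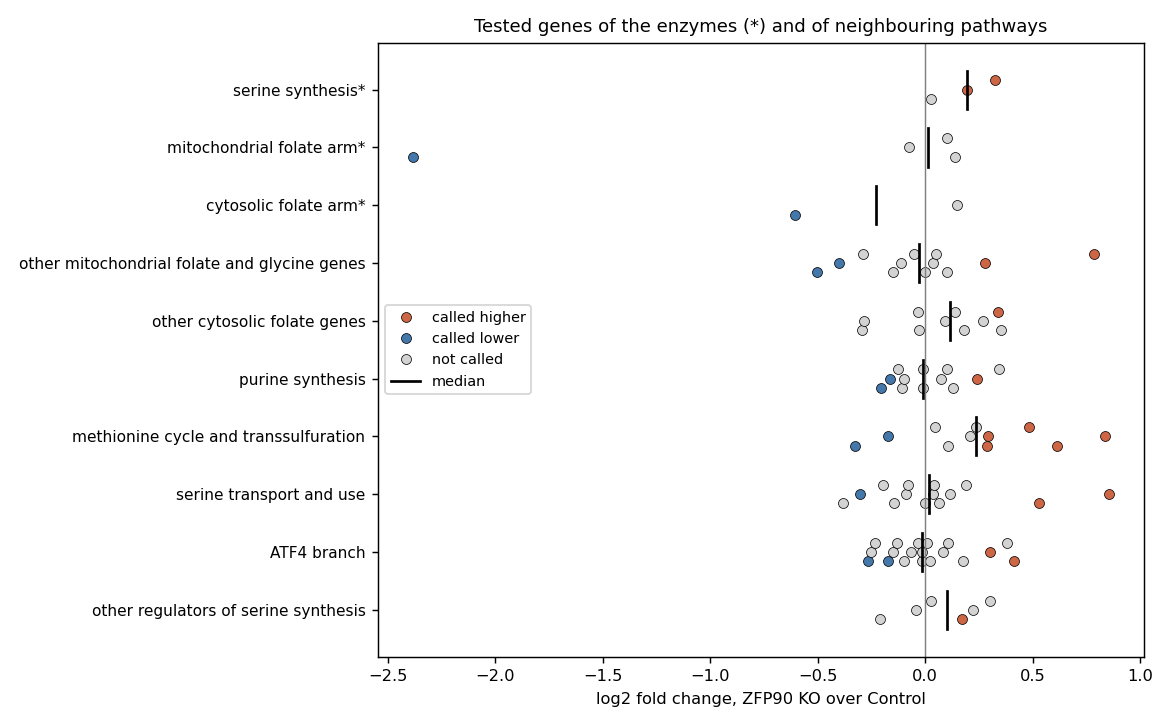
Log2 fold change (horizontal axis, knockout over control) of every tested gene in the 3 groups of enzymes, marked with an asterisk, and in the 7 neighbouring lists, colored by call, with a black bar at each list's median. ALDH1L2 at -2.38 lies beyond all other genes shown, whose values run from -0.61 for MTHFD1 to 0.85 for SERINC5.

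The 5 genes whose log2 CPM followed that of ALDH1L2 most closely over the 6 libraries were MCC, TIAM1, DSC3, PDGFC and SKAP2, with Pearson's r from 0.998 to 0.9999, given as a description over libraries that fall into 2 groups. All 5 were lower in the knockout libraries, which follows from their choice by correlation with ALDH1L2. TIAM1, an exchange factor for RAC, measured 141, 133 and 141 CPM in the controls and 55.4, 52.1 and 57.1 CPM in the knockout libraries. The desmosomal cadherin DSC3 went from 28.3, 25.7 and 28.7 to 1.87, 1.56 and 2.03 CPM, the growth factor PDGFC from 28.0 ± 1.46 to 11.1 ± 0.356 CPM, and the adaptor SKAP2 from 45.7 ± 1.31 to 17.4 ± 0.310 CPM (SD, n = 3). MCC differed least, from 68.7 ± 1.30 to 46.5 ± 0.639 CPM. None of the 5 is a serine or folate enzyme.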

How the data were processed

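For each library the authors deposited unnormalized read counts by gene symbol. The submitters' processing notes name TopHat2 2.0.11, HTSeq, hg19 and GRCh37. HTSeq's version, strand setting and annotation were not given in the sources used here, so reads of overlapping and antisense genes cannot be told apart. The 5 summary lines held 31.7% to 32.4% of listed reads and entered neither library sizes nor any test.

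Counts were tested over all genes with edgeR 4.0.16 (R 4.3.3; quasi-likelihood test, TMM scaling, filterByExpr with minimum count 10 and minimum total 15), in 3 control against 3 knockout libraries; CPM and log2 values were computed from these counts. Each SE was worked back from this test, as the absolute log2 fold change divided by the square root of its F statistic. The members and lists were chosen with earlier results of these data known. Named beyond the members were MTHFD2L, ALDH1L1, ATF4, MYC and NFE2L2. Also named were up to 4 called genes per list with the greatest absolute fold change, and the 5 genes most correlated with ALDH1L2 (prior count 2). CBS and SFXN1 were named after their values were seen. Positions and lengths came from GENCODE release 29 on GRCh38 by symbol. Chi-square per degree of freedom between replicates was 19.8 for both pairs with control replicate 2. For the other pairs it ran from 2.2 to 3.98. Alternatives were 3 other scalings, 2 other filters, DESeq2 1.42.0, limma-voom 3.58.1, a replicate block, an adjusted p under 0.01, leaving out each library, and the correction of control replicate 2.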

Additional observations from a re-analysis of the deposited data

How the results depend on the processing

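Of the 9 enzymes, ALDH1L2 and MTHFD1 kept their direction and their call in all 15 alternative fits, and 2 enzymes were called lower with each library left out. Between 0 and 3 enzymes were called higher over the libraries left out, 1 by library size alone and 0 at an adjusted p under 0.01. PSAT1 reversed to -0.033 by library size alone, -0.12 with control replicate 2 corrected, -0.13 without it and -0.0029 without knockout replicate 2, and ran from -0.13 to 0.11 over the left-out libraries. MTHFD1L reversed to -0.0038 with control replicate 2 corrected and -0.0063 without it, and ran from -0.0063 to 0.16. The arm difference reversed to 0.35 with summed reads per length, in which ALDH1L2 weighs little. SHMT2 over SHMT1 reversed to 0.026 in log2 without control replicate 3; left out in turn, the libraries gave -0.045 to 0.026.

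Over all genes, 1593 higher and 1861 lower became 986 higher by library size alone, 618 and 869 at an adjusted p under 0.01, and 2461 higher with control replicate 2 corrected; the share called higher went from 46.1% to 29.6% by library size alone. Left-out libraries gave 756 to 2261 higher and 1025 to 2361 lower. List genes numbered 7 higher and 4 lower at an adjusted p under 0.01, and 15 lower with control replicate 2 corrected. Left-out libraries gave 8 to 18 higher and 4 to 13 lower. With the replicate number as a block, 1623 genes were higher and 1840 lower, with 2 enzymes each way; deviations of same-numbered libraries correlated at 0.049, 0.145 and 0.093, and each library correlated best with its own number, a hint from the data only. The causes of these shifts were not tested. Depth limits ALDH1L2 most, with 24 to 31 reads per knockout library.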
